A study of Mus musculus with 10 samples.

Results

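The comparison of the Kif1c tail with the Kif1bβ tail rests on 4 of the 10 libraries of the study: soma and neurite RNA of N2A cells that received the Kif1c tail, and soma and neurite RNA of N2A cells that received the Kif1bβ tail. N2A (Neuro2a) is a mouse neuroblastoma line that grows neurites once serum is withdrawn. Both tails were cloned in pEGFP-C1, a vector that fuses GFP to its insert under the cytomegalovirus promoter, and were delivered by transient transfection into otherwise unmodified cells. The cells grew neurites for 48 h in medium without serum on inserts with 1 µm pores, soma were scraped off above the pores, and the membranes with the neurites were lysed. The wells of 1 plate were pooled for each transfection, and 300 ng of RNA depleted of ribosomal RNA went into each library. The other 6 libraries are soma and neurites of cells given the Kif1bα tail, a DMPK fragment with 480 CTG repeats (CTG480) or the fragment with 0 repeats (CTG0), and they are used here as a range around the pair.

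Genes were taken by a rule that makes no use of the difference between the tails. Levels in TPM, a measure of transcript abundance scaled by length and library, were added up over all transcripts of a gene. Plasmid sequences were left out, and genes had to average 5 TPM or more across the 10 libraries, which 9853 of 13698 did. For each gene the log2 ratio, Kif1c tail over Kif1bβ tail, was taken in soma and in neurites, with 0.1 TPM added to both values. The localization ratio is log2(neurite/soma) within a transfection, and the localization difference is the localization ratio with the Kif1c tail minus that with the Kif1bβ tail. Each transfection and fraction gave 1 library. No difference below has a replicate check, none carries a test, and the tail, its amount and the culture that received it cannot be told apart.

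KIF1C and KIF1B are kinesin-3 motors, which walk toward the plus ends of microtubules and bind their cargo through the tail. A tail without a motor domain can occupy the cargo or the cargo adaptors of the endogenous motor and so act as a dominant negative. Kif1bα and Kif1bβ are splice forms of 1 gene that share the motor and differ in the tail, and Kif1bβ is known for carrying synaptic vesicle precursors. KIF1C carries integrins and dense core vesicles, and in human cells it moves a class of mRNAs that gather in protrusions together with the tumour suppressor APC. The comparison addresses which mRNAs sit elsewhere in the cell when the Kif1c tail, rather than the tail of its relative, is present, the question being tied in the study to the RNA-binding protein MBNL1.

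The 2 tails were not equally abundant. In cells given the Kif1c tail, its sequence reached 24312 TPM in soma and 21606 in neurites. In cells given the Kif1bβ tail, that tail reached 3269 TPM in soma and 3454 in neurites, with 1532 and 1817 TPM on the row of the empty vector. The row of the vector held 1.41 and 2.43 TPM in the cells given the Kif1c tail. The Kif1c tail was thus 7.44 times as abundant as the Kif1bβ tail in soma and 6.25 times in neurites, or 5.06 and 4.10 times once the vector row was added to each tail.

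The deposited values of a library do not sum to 1 constant. With the Kif1c tail they summed to 1183538 in soma and 870745 in neurites, and with the Kif1bβ tail to 1120106 in soma and 892588 in neurites. Noncoding RNAs held 38.7% of the signal of genes in soma and 24.9% in neurites with the Kif1c tail, against 37.8% and 27.5% with the Kif1bβ tail. Of 15 markers of neuroblastoma and neuronal identity, 14 are in the table and sum to 1087 TPM in soma and 1074 in neurites with the Kif1c tail, against 1099 and 1055 TPM with the Kif1bβ tail. Of 30 markers of other cell types, 6 are in the table and 2 reached a mean of at least 5 TPM, and their summed level was 169 TPM in soma and 208 in neurites with the Kif1c tail, against 164 and 192 TPM with the Kif1bβ tail. In bulk RNA, fewer cells of a type and less RNA per cell cannot be told apart, and the same holds for the share of cells that took up a plasmid.

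Most genes stood close to each other in the 2 transfections. In soma, 149 genes were higher by 0.5 or more on the log2 scale with the Kif1c tail (1.51% of all genes) and 209 were lower (2.12%). In neurites, 177 were higher (1.80%) and 205 lower (2.08%), and in localization 464 were higher (4.71%) and 391 lower (3.97%). The median over all genes was −0.00 in soma, −0.00 in neurites and 0.00 in localization. In all, 358 genes passed 0.5 in soma (3.63%), 382 in neurites (3.88%) and 855 in localization (8.68%). Coding genes made up 105 of the 149 higher and 139 of the 209 lower genes in soma, and 133 of the 177 higher and 123 of the 205 lower genes in neurites. The 419 genes that are mainly noncoding passed 0.5 more often, in 27.2% of cases in soma, 30.1% in neurites and 41.5% in localization, against 2.59%, 2.71% and 7.22% of 9434 coding genes. Low genes passed it most often: the localization difference passed 0.5 in 17.3% of the quartile of genes with the lowest mean TPM, then in 7.67%, 4.06% and 5.64% of the following quartiles. With 1 library per group, the part of noise between libraries in these shares was not tested.

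**Figure D1:**
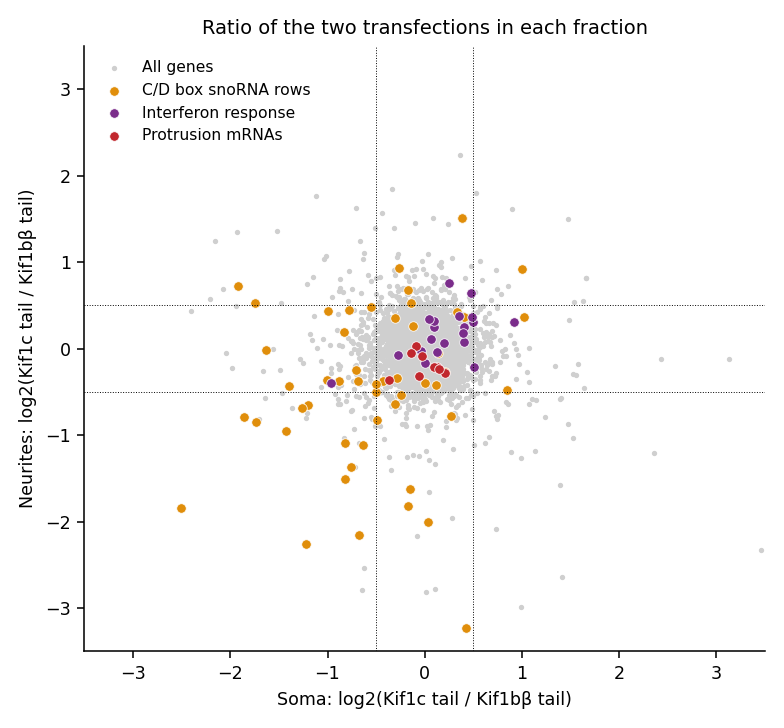
Each point is a gene with a mean of at least 5 TPM. The horizontal axis is the log2 ratio of the Kif1c tail over the Kif1bβ tail in soma, the vertical axis the same ratio in neurites, dotted lines mark 0.5 and −0.5, coloured points mark C/D box small nucleolar RNAs, interferon-response genes and protrusion mRNAs, and 6 genes lie outside the axes. Most genes sit in the central square, the small nucleolar RNAs spread to the lower left, and the interferon genes lean to the upper right.

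The ratio in soma said little about the ratio in neurites. Across the 9853 genes Pearson's r between them was −0.04 and Spearman's rho −0.02, a description over genes, which are not independent. Only 18 genes were higher by 0.5 or more in both fractions (0.183%) and 45 were lower in both (0.457%), while 60 passed 0.5 with opposite signs (0.609%). The Kif1c tail gave the highest value of the 5 transfections in both fractions for 4.19% of genes and the lowest for 4.05%, and the Kif1bβ tail did so for 3.88% and 3.84%.

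Of the mRNAs that gather in protrusions with APC, some but not all had lower localization ratios with the Kif1c tail. All 9 listed mRNAs had a mean of at least 5 TPM, with a median of −0.02 in soma, −0.22 in neurites and −0.25 in localization. None passed 0.5 in any measure. The localization difference was −0.10 or lower for 5 of the 9 (32.9% of all genes) and 0.10 or higher for 1 (32.8%), and in neurites 6 of the 9 were lower by 0.10 or more (28.6%) and none was higher by that much (27.4%). The neurite library of the Kif1c tail held the lowest value of the 5 transfections for 7 of the 9 (21.0% of all genes), and its localization ratio was the lowest for 5 (22.8%). The list was written with earlier results of these data known.

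Cyb5r3, the cytochrome b5 reductase of the ER and mitochondria, had the lowest difference of the list. It stood at 374 TPM in neurites with the Kif1c tail, against 455 TPM with the Kif1bβ tail, 413 with the Kif1bα tail, 438 with CTG480 and 455 with CTG0. In soma it stood at 283 TPM with the Kif1c tail and at 245, 243, 253 and 261 TPM in the same order of the others. The Kif1c tail libraries were thus the lowest in neurites and the highest in soma, outside the range of the other 4 in both. The localization ratio was 0.40 with the Kif1c tail, against 0.89 with the Kif1bβ tail and 0.76 to 0.80 with the others, a localization difference of −0.49. Trak2, an adaptor that links mitochondria to kinesin and dynein, had a localization ratio of 0.47 with the Kif1c tail, against 0.86 with the Kif1bβ tail and 0.82 to 0.93 with the others. Its levels were 7.28 TPM in soma and 10.1 in neurites with the Kif1c tail, against 6.55 and 11.9 TPM with the Kif1bβ tail.

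Net1, a guanine nucleotide exchange factor for RhoA, stood at 12.0 TPM in neurites with the Kif1c tail, 13.9 TPM with the Kif1bβ tail and 12.9 to 15.1 TPM with the others. Its localization ratio was 0.73 with the Kif1c tail, against 1.08 with the Kif1bβ tail and 0.89 to 1.07 with the others. Dynll2, a light chain of dynein and of myosin V, had a localization ratio of 0.47 with the Kif1c tail and 0.77 with the Kif1bβ tail, but the Kif1bα tail stood at 0.52, near the value of the Kif1c tail. For Ddr2, a collagen receptor kinase, the ratio was −0.17 with the Kif1c tail, 0.08 with the Kif1bβ tail and −0.07 to 0.09 with the others. For these 5 mRNAs the Kif1c tail gave the lowest localization ratio of the 5 transfections.

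The other 4 mRNAs did not share this order. Rab13, a GTPase of membrane traffic, was lower with the Kif1c tail in both fractions, at 18.3 TPM in soma and 31.5 in neurites, against 23.6 and 40.6 TPM with the Kif1bβ tail. Its ratios of −0.36 in soma and −0.37 in neurites left a localization difference of −0.00. Kank2, an adaptor of adhesion sites, stood at −0.07. The localization differences of the actin-associated Palld and the plakophilin relative Pkp4 were 0.10 and 0.13, with values of 8.05 and 24.5 TPM in neurites with the Kif1c tail, against 8.31 and 24.0 TPM with the Kif1bβ tail. With the mean of the 3 other transfections in place of the Kif1bβ tail, the median of the list was −0.18 in localization and −0.19 in neurites. With the libraries rescaled to the same sum it was −0.13 in localization, where the median of all genes was 0.12.

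**Figure D2:**
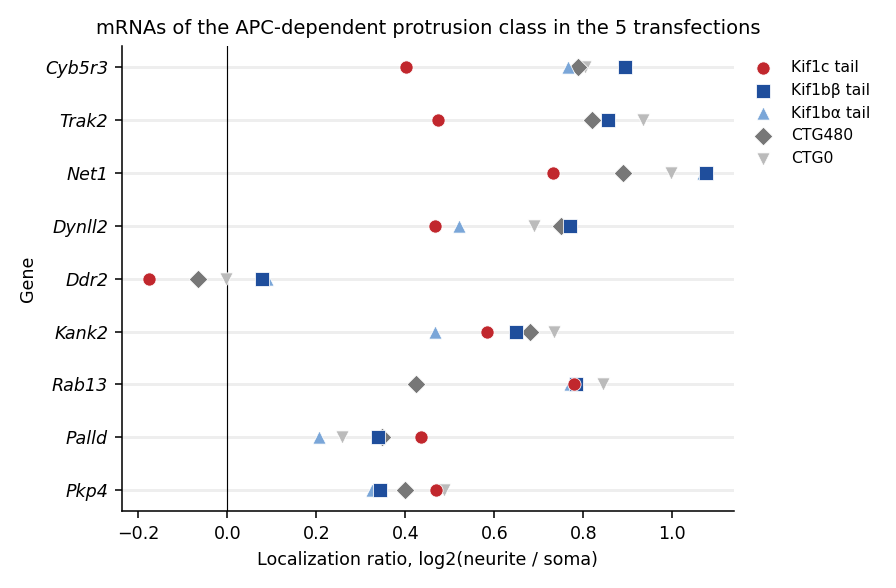
Localization ratio, log2(neurite/soma), of the 9 mRNAs of the protrusion class in the 5 transfections, with 1 point per transfection and no error, as each transfection gave 1 library per fraction. The Kif1c tail lies left of the other 4 transfections for Cyb5r3, Trak2, Net1, Dynll2 and Ddr2, and within or right of them for the other 4 mRNAs.

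Purine-rich stretches of the 3′ UTR, often with the tetramer GAAG, are known in mouse fibroblasts to be needed for the APC-dependent localization of several of these mRNAs. To show what they look like, the window of 30 bases with the most purines was taken from the 3′ UTR of each mRNA on GRCm38 (GENCODE M21). Those of Cyb5r3 (chr15:83154123-83154152), Dynll2 (chr11:87980955-87980984), Ddr2 (chr1:169974938-169974967) and Trak2 (chr1:58902771-58902800), all on the minus strand, come from mRNAs with a low localization difference. Those of Rab13 (chr3:90225722-90225751) and Pkp4 (chr2:59354537-59354566), on the plus strand, come from mRNAs without one. Each is written 5′ to 3′, and capitals mark GAAG.
Cyb5r3: ggagagagagagaggagagaGAAGagGAAG
Dynll2: aaggagaggggcagGAAGgtgggggggggg
Ddr2: gGAAGgagaggatgggtagaaaataagaaa
Trak2: ggagggatttaagagggaaaaaggggtaaa
Rab13: gGAAGaaaggggcagggaaaggagggggag
Pkp4: gaaagtgaaatgGAAGggatgagtGAAGag

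The window of Cyb5r3 held 30 purines, as did that of 3.53% of 9151 genes with a 3′ UTR, and that of Rab13 held 29, reached by 5.32%. Windows as rich as those of Dynll2 (28 purines), Ddr2 (27) and Trak2 (26) were found in 8.60%, 14.2% and 24.0% of genes, and that of Net1 held 21, which 86.3% reached. GAAG was present in the best window of 48.6% of all genes and somewhere in the 3′ UTR of 87.5%. The 9 mRNAs had a median of 7.30 GAAG per kilobase of 3′ UTR, against 4.65 over all genes, and a median 3′ UTR of 1908 bases, against 982. The density of GAAG did not order the localization difference of all genes: by GAAG per kilobase in rising quartiles, its median was 0.00, 0.02, 0.01 and −0.01. A match of letters is a description and no binding site.

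Endogenous Kif1c was lower in the cells that received its tail. It stood at 10.3 TPM in soma and 13.6 in neurites with the Kif1c tail, against 11.6 and 16.9 TPM with the Kif1bβ tail, and the other 3 transfections held 12.1 to 12.8 TPM in soma and 16.5 to 18.8 TPM in neurites. Both Kif1c tail libraries were thus the lowest of the 5 in their fraction. The log2 ratio was −0.18 in soma and −0.32 in neurites, and the localization difference −0.14. Whether reads of the transfected tail were taken from, or added to, the endogenous transcript was not tested. Kif1b stood at 72.2 TPM in soma and 59.2 in neurites with the Kif1c tail, against 64.6 and 57.9 TPM with the Kif1bβ tail. It stood at 386 and 364 TPM in the cells given the Kif1bα tail. There a single transcript of Kif1b held 378 and 355 TPM, and its other transcript held 7.58 and 8.22 TPM. Whether reads of the transfected Kif1bα tail were counted on Kif1b was not tested.

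Of 21 listed members of the Kif1 family, their adaptors and their cargo, 17 had a mean of at least 5 TPM. In soma 1 passed 0.5 upward (1.51% of all genes) and 1 downward (2.12%). In neurites none did (3.88% either way), and in localization 1 did upward (4.71%). Their median localization difference was −0.01. Itga5, the integrin subunit that KIF1C carries as a protein, had 5.54 TPM in neurites with the Kif1c tail, against 7.52 TPM with the Kif1bβ tail and 6.76 to 7.63 TPM with the others. That is the lowest neurite value of the 5, a ratio of −0.43 beside −0.06 in soma. Its partner Itgb1 differed by −0.02 in neurites. Hook2, a dynein adaptor of the family of the KIF1C partner HOOK3, was higher with the Kif1c tail in both fractions, at 10.2 and 6.45 TPM, against 6.83 and 4.58 TPM with the Kif1bβ tail, while Hook3 differed by 0.04 in soma and 0.13 in neurites. Rab3a, the GTPase of synaptic vesicles that Kif1bβ carries through the linker Madd, stood at 9.45 TPM in soma with the Kif1c tail, below 12.6 to 17.5 TPM in the other 4 soma libraries. In neurites it stood at 14.5 TPM, within the range of 13.1 to 17.0 TPM, and its localization difference was 0.65. Madd differed by −0.03 in soma and 0.00 in neurites, Kif1bp, which binds KIF1 motors, by −0.23 in localization, and Rab6a, the Golgi GTPase that binds KIF1C, by 0.14.

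Among the RNA-binding proteins the study deals with, 10 of 15 had a mean of at least 5 TPM and none passed 0.5. Mbnl1 had a localization ratio of 0.16 with the Kif1c tail, against −0.12 with the Kif1bβ tail and −0.32 to −0.02 with the others, and Mbnl2 one of 0.04, against −0.20 and −0.39 to −0.07. For both mRNAs the Kif1c tail gave the highest localization ratio of the 5. Mbnl1 stood at 50.9 TPM in soma and 56.9 in neurites with the Kif1c tail, against 54.1 and 49.7 TPM with the Kif1bβ tail. The mRNA of nucleolin (Ncl), an RNA-binding protein of the nucleolus, stood at 196 TPM in soma and 215 in neurites with the Kif1c tail, against 183 and 261 TPM with the Kif1bβ tail. Its localization ratio was 0.13 with the Kif1c tail, the lowest of the 5, and 0.51 with the Kif1bβ tail, the highest. It was 0.18 with the Kif1bα tail, 0.28 with CTG480 and 0.47 with CTG0. Against the mean of the 3 other transfections, the localization difference of Ncl was −0.18. Ncl is among the 261 transcripts that the authors chose on these same samples, so its direction is fixed by that choice. By FISH in separate cells, the paper reported that Ncl spots reached less far along neurites with CTG480, the Kif1bα tail or the Kif1c tail. It reported no such shift with CTG0 or the Kif1bβ tail, and none for Gapdh. Celf1 and Gapdh differed by 0.09 and 0.05 in localization.

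The localization difference varied with the base composition of the 3′ UTR. Among 9151 genes with a 3′ UTR in GENCODE M21, which is 96.7% of the genes with a coding transcript, the median difference was 0.07 in the quartile with the lowest GC content, then 0.02, −0.01 and −0.06 in the quartile with the highest. A difference of 0.10 or higher was found in 43.2% of the lowest quartile and 22.4% of the highest, and one of −0.10 or lower in 21.9% and 43.4%. Against the Kif1bβ tail, the trend lay in the neurite libraries, where the medians were 0.08, 0.03, −0.02 and −0.08. In soma they were 0.01, 0.00, −0.01 and −0.02. Against the 3 other transfections, both fractions varied, in opposite directions. The medians were then 0.05, 0.02, −0.01 and −0.04 in neurites and −0.02, −0.01, 0.01 and 0.03 in soma. The localization difference against the Kif1bβ tail had the same direction in each quartile of mean TPM. Its medians were 0.09 and −0.06 for low and high GC among the lowest genes, and 0.04 and −0.05 among the highest. Pearson's r of GC content with the ratio was −0.28 in neurites, −0.05 in soma and −0.16 in localization, across genes that are not independent.

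Behind the trend, the localization ratio varied least with GC content in the Kif1c tail cells. Its median per quartile, from low to high GC, was 0.00, 0.02, 0.04 and 0.04 with the Kif1c tail, against −0.07, −0.01, 0.04 and 0.10 with the Kif1bβ tail. It was −0.10 and 0.10 in the outer quartiles with the Kif1bα tail, −0.13 and 0.14 with CTG480, and −0.03 and 0.06 with CTG0. The Kif1c tail and CTG0 were thus the flattest of the 5 and CTG480 the steepest. YGCY, the motif that MBNL proteins bind (Y is C or U), was found on the transcript strand in 96.3% of the 3′ UTRs and followed the same order: from few to many motifs per kilobase of 3′ UTR, the median localization difference was 0.03, 0.02, −0.00 and −0.04. By the length of the 3′ UTR it was −0.03, −0.01, 0.01 and 0.03 from short to long.

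**Figure D3:**
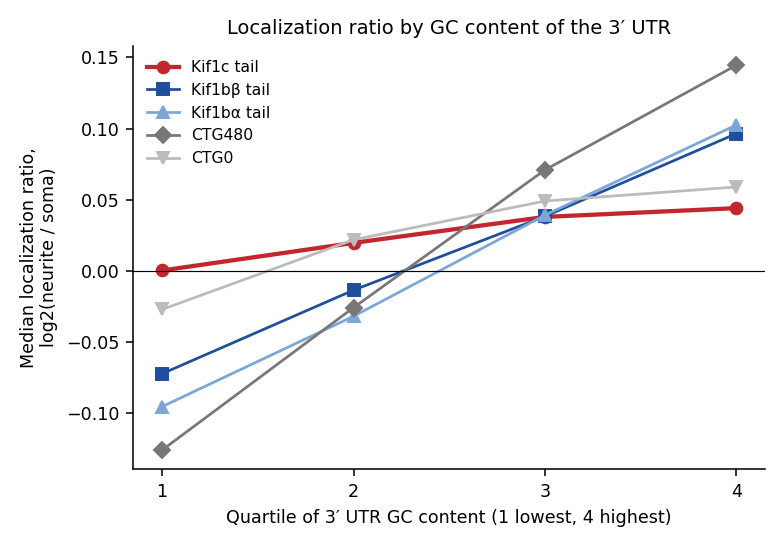
Median localization ratio, log2(neurite/soma), in quartiles of 3′ UTR GC content, for each of the 5 transfections over 9151 genes. The line of the Kif1c tail lies between 0.00 and 0.04, that of the Kif1bβ tail runs between −0.07 and 0.10, and that of CTG480 is the steepest.

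KIF1C carries dense core vesicles, and here only the mRNAs of vesicle proteins were measured. These mRNAs were on the low side in neurites. Of 16 listed mRNAs of dense core vesicle proteins, 11 had a mean of at least 5 TPM, with a median of 0.02 in soma, −0.09 in neurites and −0.15 in localization. The localization difference was −0.10 or lower for 7 of them (32.9% of all genes) and 0.10 or higher for 1 (32.8%), and the Kif1c tail had the lowest neurite value of the 5 transfections for 6 (21.0%). With the libraries rescaled to the same sum, the medians were −0.03 in neurites and −0.03 in localization, where those of all genes were 0.06 and 0.12. Vgf, a granin-like neuropeptide precursor, stood at 256 TPM in neurites with the Kif1c tail, against 311 TPM with the Kif1bβ tail and 297 to 325 TPM with the others. In soma it stood at 413 TPM with the Kif1c tail, against 389 TPM with the Kif1bβ tail and 371 to 451 TPM with the others, so only its neurite library stood outside the range, and its localization difference was −0.36. Chgb, a granin, differed by −0.29 and Ptprn2, a phosphatase-like protein of the vesicle membrane, by −0.25, but Scg2 by 0.01 and Scg3 by 0.15. Against the 3 other transfections, Chgb stood at −0.08, Ptprn2 at 0.00, Scg2 at −0.15 and Scg3 at −0.00. Npy, a secreted neuropeptide, was lower in both fractions, at 15.3 TPM in soma and 17.0 in neurites with the Kif1c tail, against 22.0 and 27.3 TPM with the Kif1bβ tail. It was the lowest of the 5 in both, by −0.53 and −0.68 against the Kif1bβ tail, but CTG0 held 17.4 TPM in neurites, close to the Kif1c tail.

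The 35 listed mRNAs of ER chaperones and the translocon all had a mean of at least 5 TPM and none passed 0.5. Their median was −0.02 in soma, −0.08 in neurites and −0.03 in localization. The Kif1c tail had the lowest neurite value for 21 of the 35 (21.0% of all genes) and the lowest localization ratio for 17 (22.8%). Hspa5 (BiP), the main chaperone of the ER lumen, stood at 342 TPM in neurites with the Kif1c tail, against 394 TPM with the Kif1bβ tail and 383 to 389 TPM with the others. In soma it stood at 562 TPM with the Kif1c tail, against 505 TPM with the Kif1bβ tail and 538 to 542 TPM with the others. It was outside the range on opposite sides in the 2 fractions, and its localization difference was −0.36. The ER chaperone Hyou1 differed by −0.23 and the disulfide isomerase Pdia6 by −0.24, while Dnajb9, a cochaperone, differed by 0.48, with 20.9 TPM in neurites with the Kif1c tail and 16.0 TPM with the Kif1bβ tail. With the libraries rescaled to the same sum, the median localization difference of all genes moved up by 0.12 and that of the ER list stood at 0.09, below the rescaled median of all genes of 0.12.

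Synaptic vesicle and SNARE mRNAs, 22 of 25 at a mean of at least 5 TPM, had a median of −0.05 in neurites and −0.01 in localization. In each, 1 was higher by 0.5 or more (1.80% and 4.71% of all genes) and 2 were lower (2.08% and 3.97%). Cplx2, a complexin that clamps vesicle fusion, stood at 31.4 TPM in neurites with the Kif1c tail, against 54.7 TPM with the Kif1bβ tail and 43.7 to 49.2 TPM with the others. The neurite library of the Kif1c tail was the lowest and that of the Kif1bβ tail the highest of the 5, and the localization difference of −0.61 draws on both. Syp, the vesicle protein synaptophysin, stood at 20.7 TPM in neurites with the Kif1c tail, against 29.7 TPM with the Kif1bβ tail and 26.3 to 28.8 TPM with the others. Its localization ratio was −0.46 with the Kif1c tail, against 0.00 with the Kif1bβ tail and 0.16 to 0.23 with the others, so the Kif1c tail stood apart from all 4. The SNARE Vamp1, a low gene, differed by −0.80 in localization. Cartpt, a neuropeptide precursor, and Hes6, a transcription factor of neuronal differentiation, were lower in neurites with the Kif1c tail, at 18.7 and 17.5 TPM, against 28.5 and 28.2 TPM with the Kif1bβ tail.

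mRNAs known from neurites and the proteins of RNA transport granules leaned the other way. Of 38 listed, 34 had a mean of at least 5 TPM, with a median of −0.01 in soma, 0.09 in neurites and 0.08 in localization. In neurites 16 of the 34 were higher by 0.10 or more (27.4% of all genes) and 5 lower (28.6%), and the Kif1c tail had the highest neurite value of the 5 transfections for 21 (21.0% of all genes). Elavl4 (HuD), a neuronal RNA-binding protein that stabilizes mRNAs with AU-rich elements, stood at 22.3 TPM in neurites with the Kif1c tail, against 16.8 TPM with the Kif1bβ tail and 20.2 to 23.6 TPM with the others. Its localization ratio was 0.07 with the Kif1c tail, against −0.54 with the Kif1bβ tail and −0.36 to −0.18 with the others, a difference of 0.61 to which both ends of the range contribute. Stau2, a double-stranded RNA-binding protein of dendritic granules, stood at 9.23 TPM in soma and 9.50 in neurites with the Kif1c tail, against 11.9 and 8.14 TPM with the Kif1bβ tail. Its difference was 0.58.

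Fmr1, the fragile X protein, differed by 0.44, Elavl3 by 0.42 and Cpeb4, a regulator of poly(A) tails, by 0.37. Against the 3 other transfections, Fmr1 stood at 0.05, Elavl3 at 0.25, Cpeb4 at 0.28 and Stau2 at 0.27. The mRNAs best known for their place in neurites did not follow: β-actin (Actb) differed by −0.03, Camk2a by 0.03, Map2 by −0.04 and the growth cone protein Gap43 by −0.19, and against the 3 other transfections Camk2a stood at −0.14 and Gap43 at 0.03. The 3′ UTRs of this list had a median GC content of 39.8%, against 44.7% over all genes. Less the median of each gene's GC quartile, the median localization difference of the list was 0.05, against 0.08 without this step. For the protrusion mRNAs, whose 3′ UTRs had a median GC content of 42.5%, it was −0.24, against −0.25.

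Mitotic mRNAs were slightly higher in neurites with the Kif1c tail. All 30 listed averaged 5 TPM or more, with a median of −0.04 in soma, 0.13 in neurites and 0.12 in localization. In neurites 20 of the 30 were higher by 0.10 or more (27.4% of all genes) and 1 was lower (28.6%), and the localization ratio with the Kif1c tail was the highest of the 5 for 16 (22.5% of all genes). Ttk, a spindle checkpoint kinase, stood at 14.4 TPM in soma and 20.5 in neurites with the Kif1c tail, against 17.7 and 12.3 TPM with the Kif1bβ tail. In both fractions the 2 transfections marked the ends of the range, apart from the Kif1bα tail in soma at 17.9 TPM, and the localization difference was 1.02. The checkpoint protein Mad2l1 differed by 0.41, the kinases Plk1 and Bub1 by 0.35 each and Cdk1 by 0.34, but the phosphatase Cdc25c by −0.40. Against the 3 other transfections, Mad2l1 stood at 0.27, Plk1 at 0.31 and Bub1 at 0.26, but Cdk1 at 0.08 and Cdc25c at −0.03. The Kif1bβ tail had the lowest neurite value of the 5 for 11 of the 30 (17.4% of all genes), and against the 3 other transfections the median in neurites was 0.08. Less the GC quartile median, the median of the list was 0.10 in localization.

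Genes of the interferon response stood higher with the Kif1c tail than with the Kif1bβ tail in both fractions. Of 36 listed genes, 20 had a mean of at least 5 TPM, and their median was 0.23 in soma and 0.22 in neurites, against −0.05 in localization. In each fraction 12 of the 20 were higher by 0.10 or more (24.4% of all genes in soma, 27.4% in neurites). Past 0.5, 2 were higher (1.51% of all genes) and 1 lower (2.12%) in soma. In neurites 2 were higher (1.80%) and none lower (2.08%). The Kif1c tail had the highest soma value of the 5 transfections for 12 of the 20 (21.3% of all genes), the highest neurite value for 10 (21.0%), and both for 6 (4.19%). The Kif1bβ tail had the lowest value for 6 in soma, 4 in neurites (17.4%) and 3 in both (3.84%), so its libraries enter these ratios too. Summed over the 20 genes, soma held 746 TPM with the Kif1c tail and with CTG0, and 678 TPM with the Kif1bβ tail. In neurites the sums were 709, 633 and 616 TPM in that order. The Kif1bα tail held 713 TPM in soma and 702 in neurites, close to the Kif1c tail in neurites. CTG480 held 682 and 605 TPM. With the mean of the 3 other transfections as the reference, the medians were 0.16 in soma and 0.12 in neurites, and over the members with a mean of at least 20 TPM they were 0.11 and 0.09.

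Bst2 (tetherin), which holds budding viruses at the cell surface, stood at 53.7 TPM in soma and 62.8 in neurites with the Kif1c tail. It stood at 38.4 and 48.9 TPM with the Kif1bβ tail, and at 37.3 to 48.2 TPM in soma and 47.8 to 48.4 TPM in neurites with the others. Both Kif1c tail libraries were the highest of the 5, and in neurites the other 4 lay close together. Ddx58 (RIG-I), a sensor of viral RNA, stood at 8.53 and 10.5 TPM with the Kif1c tail, against 6.09 and 6.70 TPM with the Kif1bβ tail. Eif2ak2 (PKR), a kinase that double-stranded RNA activates, stood at 22.1 and 19.7 TPM with the Kif1c tail, against 17.2 and 15.2 TPM with the Kif1bβ tail. Both were the highest of the 5 in soma and in neurites, as was the antiviral GTPase Mx2, at 12.0 and 10.1 TPM with the Kif1c tail, against 9.04 and 8.44 TPM with the Kif1bβ tail.

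Not all members followed. Ifit1, which binds foreign RNA ends, was the highest of the list in soma (0.92), at 7.02 TPM with the Kif1c tail, against 3.67 TPM with the Kif1bβ tail, and its ratio in neurites was 0.31. The ubiquitin-like Isg15 stood at 0.51 in soma and −0.22 in neurites. Tmem173 (STING), the adaptor of DNA sensing, was lower with the Kif1c tail, at 3.75 TPM in soma and 5.51 in neurites, against 7.43 and 7.28 TPM with the Kif1bβ tail. The transcription factors Irf3, Stat2 and Irf1 differed by 0.00, −0.03 and −0.27 in soma. Outside the list, and chosen after their values were seen, the interferon-induced Apol9a (0.52 in soma and 0.66 in neurites), its paralog Apol9b (0.85 and 0.73) and the chemokine Ccl5 (1.63 and 0.55) were among the 18 genes higher by 0.5 or more in both fractions. Apol9a stood at 19.9 and 27.1 TPM with the Kif1c tail, against 13.8 and 17.1 TPM with the Kif1bβ tail, and the others held at most 15.2 TPM in soma and 21.2 TPM in neurites. Apol9b shares much of its sequence with Apol9a, and its 11.3 TPM in neurites with the Kif1c tail, against 6.80 TPM with the Kif1bβ tail, lay below the 16.8 and 16.5 TPM with CTG480 and CTG0. Ifnar2, a subunit of the receptor for interferon α and β, was lower in neurites, at 17.5 TPM with the Kif1c tail, against 27.0 TPM with the Kif1bβ tail. The tail itself was 7.44 times as abundant in soma with the Kif1c tail as with the Kif1bβ tail, and the part of the plasmid level was not tested.

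**Figure D4:**
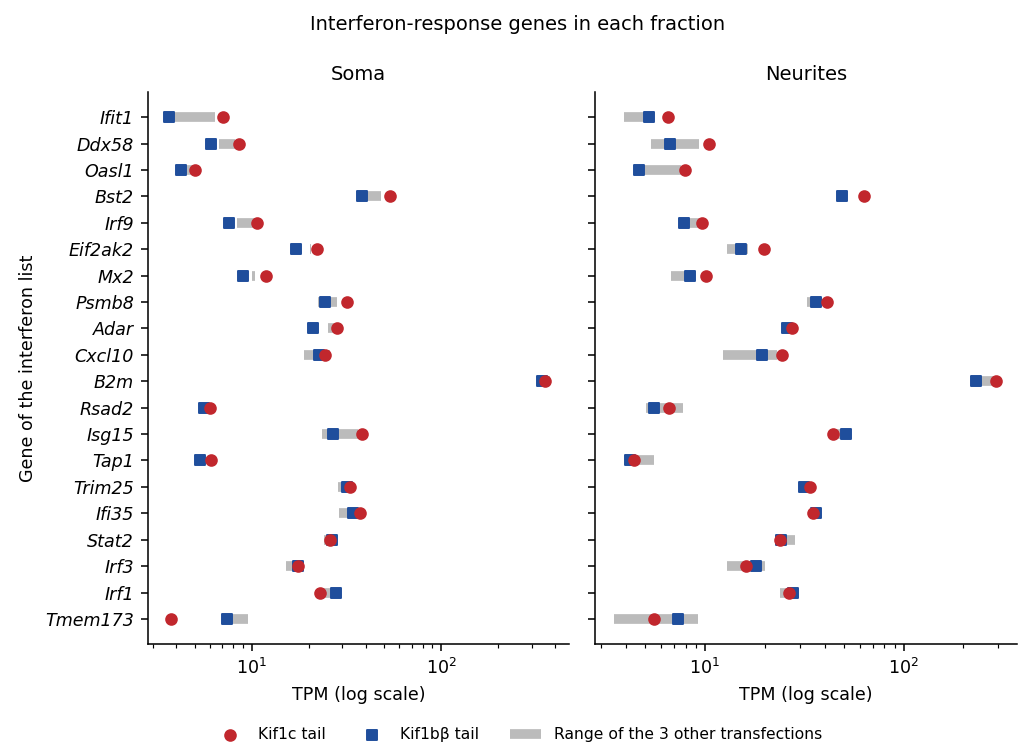
TPM on a log scale of the 20 interferon-response genes with a mean of at least 5 TPM, in soma (left) and neurites (right), for the Kif1c tail (red), the Kif1bβ tail (blue) and the range of the 3 other transfections (grey), with 1 library each. The Kif1c tail lies right of the Kif1bβ tail for most genes in both fractions, with Tmem173 on the opposite side.

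The promoters of interferon-induced genes are known for the interferon-stimulated response element, with a core of 2 GAAA repeats spaced by 2 bases. This core, GAAANNGAAA on either strand, was looked for in RefSeq promoter windows of GRCm38.p6 that run from 250 bases before to 50 bases after a gene's start. It was present in 9 of the 18 list members with a window, against 3.39% of 7556 tested genes. The 9 with the core had a median of 0.36 in soma and 0.33 in neurites, and the 9 without it 0.20 and 0.07. Over all 256 tested genes with the core, the medians were 0.00 and 0.02. The stretches of Bst2 (chr8:71537585-71537610), Ifit1 (chr19:34640796-34640821) and Eif2ak2 (chr17:78882537-78882562), on the minus strand, and of Ddx58 (chr4:40239806-40239831), on the plus strand, are shown because these genes were among the highest. That of Stat2 (chr10:128270268-128270293, minus strand) is shown as a gene with the core and ratios of −0.03 and −0.02. Capitals mark the core, 5′ to 3′.
Bst2: cattccagGAAAATGAAActgaaagg
Ifit1: agcagtgaGAAACTGAAActgagact
Eif2ak2: tccgccggGAAAACGAAAcagaagag
Ddx58: ggccatagGAAATCGAAActgcctca
Stat2: agggaaagGAAACTGAAAccagggtg

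The large machineries of the cell showed little. The median localization difference was 0.03 for 79 cytosolic ribosomal proteins, 0.02 for 77 subunits of the respiratory chain and ATP synthase, −0.02 for 78 mitochondrial ribosomal proteins, −0.05 for 31 proteasome subunits, 0.02 for 25 other kinesins and −0.00 for 21 subunits of dynein and dynactin. Nucleolar ribosome biogenesis factors, 40 of 40 measured, were slightly higher in soma with the Kif1c tail (median 0.09, 18 of 40 higher by 0.10 or more, against 24.4% of all genes) and stood at 0.01 in neurites. ATF4 targets, the genes of amino acid shortage and the integrated stress response, had a median localization difference of −0.12 in 27 of 29 members, with 15 at −0.10 or lower (32.9% of all genes) and 3 at 0.10 or higher (32.8%). Cebpb, a transcription factor of that response, differed by −0.56, with 46.1 TPM in soma and 61.1 in neurites with the Kif1c tail, against 37.8 and 73.8 TPM with the Kif1bβ tail. CTG480, with 78.9 TPM in neurites, was higher than both. With the libraries rescaled to the same sum, the median of the ATF4 list was 0.00, still below the rescaled median of all genes. Glycolytic mRNAs had a median of −0.07 (soma) and −0.10 (neurites), with 14 of 18 below 0 in both fractions (25.7% of all genes). Against the 3 other transfections, these medians were −0.01 and −0.09. The Kif1c tail was the lowest of the 5 for 2 of the 18 in soma (21.8% of all genes) and for 7 in neurites (21.0%).

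**Figure D5:**
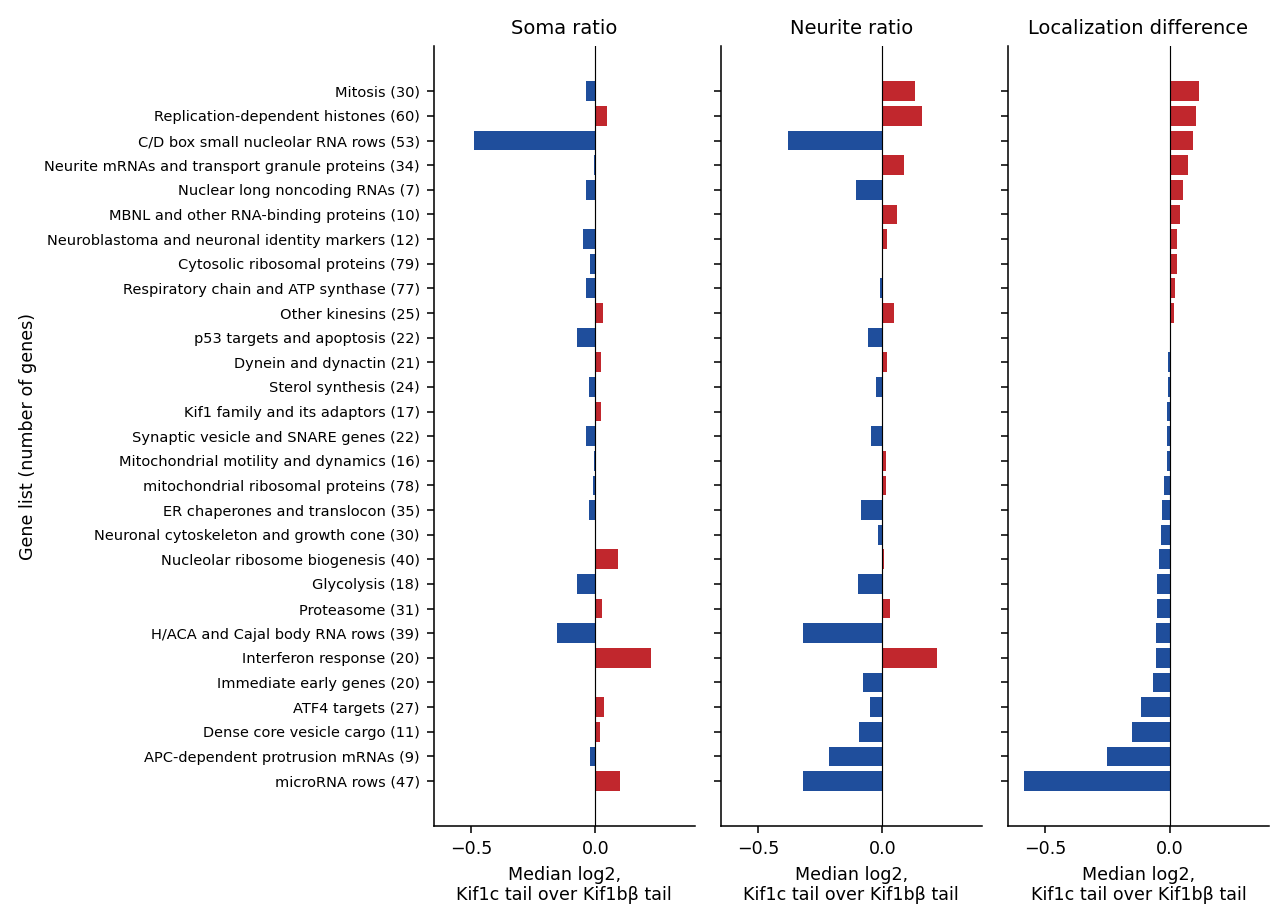
Median log2 ratio of each gene list in soma (left), in neurites (middle) and median localization difference (right), Kif1c tail over Kif1bβ tail, for 29 lists with the number of members in brackets. Red bars lie above 0 and blue bars below, and no error is drawn, since each transfection gave 1 library per fraction. The interferon list is the only one of mRNAs with bars above 0.2 in both fractions, and the protrusion mRNAs have the lowest localization bar among lists of mRNAs.

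Nuclear RNAs differed between the fractions. Malat1, a long noncoding RNA of nuclear speckles, stood at 1821 TPM in soma and 1111 in neurites with the Kif1c tail, against 1478 and 1371 TPM with the Kif1bβ tail. In soma the Kif1c tail was the highest and the Kif1bβ tail the lowest of the 5, in neurites the Kif1bβ tail was the highest, and the localization difference was −0.60. Neat1, the scaffold of paraspeckles, differed by −0.48, but Airn by 0.37 and Tug1 by 0.19, and the median of the 7 nuclear RNAs measured was 0.05. How far the purity of the fractions enters the localization differences of mRNAs was not tested.

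Histone mRNAs differed by class, a division made after their values were seen. Of 63 replication-dependent histone genes, 60 had a mean of at least 5 TPM. In localization 13 were higher (4.71% of all genes) and 1 lower (3.97%) by 0.5 or more. The 15 H2B genes had a median of −0.24 in soma, 0.42 in neurites and 0.56 in localization. In localization 10 of them were higher by 0.5 or more (4.71% of all genes). Their median localization ratio was 0.30 with the Kif1c tail, against −0.32 with the Kif1bβ tail, 0.11 with the Kif1bα tail, −0.09 with CTG480 and −0.38 with CTG0. The Kif1c tail was the lowest of the 5 in soma for 11 of the 15 (21.8% of all genes), and the Kif1bβ tail was the lowest in neurites for 11 (17.4%), so both libraries enter these medians. Hist1h2bg, for example, stood at 359 TPM in soma and 366 in neurites with the Kif1c tail, against 380 and 246 TPM with the Kif1bβ tail. The other classes stayed near 0 or below, with medians of −0.06 for 16 H2A genes, 0.05 for 11 H3 genes, 0.08 for 13 H4 genes and −0.28 for 5 H1 genes. Histone genes are near-identical copies among which reads can be divided in more than 1 way, and Hist1h2bq and Hist1h2br carry identical values, so the genes of a class are not separate measurements.

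Small noncoding RNAs spread most. Among 53 C/D box small nucleolar RNAs, which guide methylation of ribosomal RNA, 26 were lower (2.12% of all genes) and 3 higher (1.51%) by 0.5 or more in soma, and 20 were lower (2.08%) and 9 higher (1.80%) in neurites. Over all noncoding genes 27.2% passed 0.5 in soma and 30.1% in neurites, in either direction. The medians of the C/D box RNAs were −0.49 and −0.38. With the mean of the 3 other transfections as the reference, the median was 0.23 in soma, the opposite sign, and −0.34 in neurites. The 39 H/ACA and Cajal body RNAs had medians of −0.15 and −0.32. Snora44, which guides pseudouridylation, stood at 488 TPM in soma and 144 in neurites with the Kif1c tail, against 810 and 273 TPM with the Kif1bβ tail, the lowest of the 5 in both. Snord35a stood at 116 and 62.7 TPM with the Kif1c tail, against 57.7 and 33.1 TPM with the Kif1bβ tail, which marked the highest and the lowest of the 5 in both fractions. Snord83b stood at 423 and 106 TPM with the Kif1c tail, against 987 and 506 TPM with the Kif1bβ tail, and the Kif1bβ tail held the highest value of the 5 in both. The rows named after microRNAs, 47 of 50 at a mean of at least 5 TPM, had medians of 0.10 in soma and −0.32 in neurites. No library step for small RNAs is described, so what these rows count is unknown, and Mir466b-4 is listed at 0 in the soma of Kif1bβ tail cells, so that its ratio is not given.

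Few coding genes differed in the same direction by 0.5 or more in both fractions. Of the 45 genes lower by 0.5 or more in both, 18 were coding, and for 7 of these the Kif1c tail was the lowest of the 5 in both. Npy is 1 of them, and the others, all under a mean of 20 TPM, were named after their values were seen: Cnnm3, Pitx1, Scd3, Sdhaf3, Unc119 and Wdr45. Wdr45, a protein of autophagosome formation, stood at 6.52 TPM in soma and 7.16 in neurites with the Kif1c tail, against 11.7 and 14.8 TPM with the Kif1bβ tail. Unc119, a carrier of lipid-modified proteins, stood at 10.5 and 17.1 TPM with the Kif1c tail, against 18.6 and 26.0 TPM with the Kif1bβ tail. For both genes the Kif1bβ tail was also the highest of the 5 in both fractions. Of the 9 coding genes higher in both, the Kif1c tail was the highest of the 5 in both for 4, named for their values as well, Apol9a, Ccl5, Phf1 and Ppcs. Phf1 is listed at 0 in the soma of Kif1bβ tail cells, so no ratio is given for it there.

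Among coding genes that averaged 20 TPM or more, the highest ratio rested on 1 library of the Kif1bβ tail. The antiproliferative gene Btg3 had the highest ratio in soma (2.43), at 17.5 TPM with the Kif1c tail, against 3.15 TPM with the Kif1bβ tail, but the other 3 transfections held 16.9 to 29.8 TPM. Its neurite values were 32.4 TPM with the Kif1c tail and 35.3 TPM with the Kif1bβ tail, and the localization difference of −2.56 is set by the soma library of the Kif1bβ tail. Pus10, a pseudouridine synthase, was next in soma (1.05), at 29.8 TPM with the Kif1c tail, against 14.4 TPM with the Kif1bβ tail and 18.8 to 28.5 TPM with the others. The interferon-induced Ifi27 stood at 121 TPM with the Kif1c tail in soma, against 78.6 TPM with the Kif1bβ tail, and was the highest of the 5 in both fractions.

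At the low end in soma, the respiratory chain subunit Cox7a1 stood at 9.39 TPM with the Kif1c tail, against 26.3 TPM with the Kif1bβ tail and 19.2 to 27.2 TPM with the others. The ubiquitin ligase Park2 (parkin) stood at 61.3 TPM in soma with the Kif1c tail, against 121 TPM with the Kif1bβ tail, with 67.0 to 91.7 TPM in the others, so both ends of the range were taken by the pair. Phf23 and Ace, the angiotensin-converting enzyme, differed by −0.69 and −0.68, and both were the lowest of the 5 in soma with the Kif1c tail.

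In neurites, the mitochondrial protein Tmem160 was the lowest (−0.82), at 26.6 TPM with the Kif1c tail, against 47.2 TPM with the Kif1bβ tail and 35.2 to 43.5 TPM with the others. Cyb5a, the electron carrier cytochrome b5, was among the highest (0.91), at 35.5 TPM with the Kif1c tail, against 18.8 TPM with the Kif1bβ tail and 19.1 to 27.7 TPM with the others. Tmem258, a subunit of oligosaccharyltransferase, stood at 123 TPM with the Kif1c tail, against 69.7 TPM with the Kif1bβ tail and 78.4 to 97.3 TPM with the others. For both genes the Kif1c tail was the highest and the Kif1bβ tail the lowest of the 5 in neurites, and in soma the Kif1c tail was the lowest of the 5, at 20.4 and 80.6 TPM, against 25.4 and 111 TPM with the Kif1bβ tail. Gng5, a small G protein subunit, had the same pattern and a localization difference of 1.05, with 246 TPM in soma and 281 in neurites with the Kif1c tail, against 336 and 186 TPM with the Kif1bβ tail.

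The study also deposited localization ratios for 261 transcripts, which its authors chose on these same samples, so their direction is fixed by the choice. All 261 are in the table of TPM, with localization differences of −2.56 to −0.10 and a median of −0.29. Within this chosen set, 232 of 261 had a soma ratio above 0 and 211 of 261 a neurite ratio below 0. These counts describe the choice, and the shares over all transcripts were not taken. The lowest was a transcript of the glyoxalase Glo1, at 19.8 TPM in soma and 5.04 in neurites with the Kif1c tail, against 14.2 and 21.5 TPM with the Kif1bβ tail. Summed over its transcripts, Glo1 differed by −0.39, at 58.0 TPM in soma and 55.1 in neurites with the Kif1c tail, against 53.2 and 66.1 TPM with the Kif1bβ tail. A transcript of the actin nucleator subunit Actr3 differed by −1.34, while the gene as a whole differed by 0.09, so single transcripts of a gene and their sum can point in different directions.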

How the data were processed

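Soma and neurite RNA from 5 transfections of N2A cells was sequenced as 1 library per transfection and fraction, and all 10 columns of the table were matched to their samples by name. The authors used bcl2fastq 2.20, then kallisto 0.43.0 on the RefSeq transcripts of mm10, and normalized TPM between libraries by cyclic loess, and the deposited values (used here as a linear signal, since their sums differ between libraries) give no read counts and are pulled toward a common level across libraries, so depth is unknown and no counting interval can be given. Which columns were normalized together is not given in the sources used here. A second deposited table holds log2 localization ratios of 261 transcripts, and only its transcript names were used.

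TPM were summed by gene, without 5 plasmid rows and 3 rows that carry no gene name, of 17300 rows. A minimum mean of 5 TPM, a pseudocount of 0.1 TPM and a threshold of 0.5 on the log2 scale were used, and log2 ratios of low genes are understated by the pseudocount. No test was made. The members and gene lists were chosen with earlier results of these data known. Genes were named by rule: the Kif1 and RNA-binding lists, the 8 highest and 8 lowest coding genes with a mean of at least 20 TPM in each measure, those outside the range of the other 4 transfections in both fractions, the 4 most extreme noncoding genes in each direction, and up to 4 members of each list, from which the text takes a part. Other genes are said to be named after their values were seen, or are list members shown for contrast. 3′ UTRs came from GENCODE M21 and promoters from RefSeq, both of GRCm38. 96 rows carry values equal to another row. Calculations were made in Python 3.11.15 (numpy 2.4.6, pandas 2.3.3), and plots in matplotlib 3.10.9. The proteins of the tails were not analysed here.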

Additional observations from a re-analysis of the deposited data

Results flagged for a closer look

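In 3 coding genes with a mean of at least 20 TPM, the Kif1c tail was lower than the Kif1bβ tail by 0.5 or more in soma and higher by 0.5 or more in neurites. The difference between the fractions was not tested, since each ratio rests on 1 library per group. Cox7a1 had a log2 ratio of −1.48 in soma and 0.53 in neurites, 2.01 apart, and Hist1h2bp, a histone gene with near-identical copies, had −0.89 and 0.67, 1.56 apart. Against the mean of the 3 other transfections, Cox7a1 stood at −1.34 in soma but 0.09 in neurites, and Hist1h2bp at −0.46 and 0.14, so neither passed 0.5 in neurites. The Kif1bα tail held 27.6 TPM of Cox7a1 in neurites, above the 23.5 TPM with the Kif1c tail and the 16.2 TPM with the Kif1bβ tail. Snurf had −1.52 and 1.36, 2.88 apart. Snurf shares a bicistronic transcript with Snrpn, and summed over both genes the values were 30.9 TPM in soma and 36.7 in neurites with the Kif1c tail, against 32.8 and 35.2 TPM with the Kif1bβ tail, which gives −0.09 in soma, 0.06 in neurites and 0.15 in localization.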

How the results depend on the processing

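With soma, neurites, localization and both fractions in this order, the counts were 358, 382, 855 and 63 as reported. They were 994, 1018, 1803 and 177 at a minimum mean of 1 TPM, 111, 127, 273 and 31 at one of 20 TPM, and 1695, 1724, 2757 and 328 with no minimum. They were 79, 78, 180 and 3 with a threshold of 1, and 1157, 1181, 2039 and 228 over single transcripts. With the mean of the 3 other transfections as the reference, 205 passed in neurites, 558 in localization and 30 in both fractions, and with coding genes only 28 passed in both. With the libraries rescaled to the same sum, the median of all genes shifted by −0.06 in soma, 0.06 in neurites and 0.12 in localization, and the calls were 122 higher and 258 lower in soma, 257 and 148 in neurites, and 788 and 238 in localization, against 149 and 209, 177 and 205, and 464 and 391 as reported. Against the 3 other transfections, 263 were higher and 295 lower in localization, and at 20 TPM or more 45 were higher and 82 lower in neurites. Centring on GC quartiles, chosen after seeing the data, left 622 calls in localization. Of 312 values of named genes, 46 had the other sign against the 3 other transfections and 23 on rescaling. Those past 0.5 as reported were Btg3 (−0.31 in soma, 0.10 in localization) and Apol9b (−0.33 in neurites), against the 3 other transfections, and the cause was not tested. Against that reference, 53 more values of named genes that were past 0.5 as reported kept their sign but fell under 0.5. Kif1b then stood at −0.71 and −0.79, its mean including the Kif1bα tail cells. No paired analysis was possible because each transfection and fraction has 1 library, and for the same reason no library could be left out. Depth in reads is unknown, so the precision of low genes is unknown too.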
